A study of Homo sapiens with 6 samples.

Results

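The comparison described here sets HCT116 cells transfected with small interfering RNA against PIR (siPIR, 2 libraries) against untreated HCT116 cells (2 libraries). HCT116 is an established human colorectal carcinoma line. These 4 libraries were chosen by their sample titles, from 6 in all; the remaining 2 came from cells given SP2509, an inhibitor of the histone demethylase LSD1, at 3 uM for 48 h, and they enter here only where the spread is estimated and where a doubt over a label calls for them. All cells carry the wild-type label and grew in serum-supplemented medium, and the knockdown lasted 48 h per the series' design text. For both siPIR samples the title gives a PIR knockdown and no compound, but the treatment label gives SP2509. The treatment protocol names a DMSO arm, and whether the untreated cells received that solvent is not stated. No library of mock-transfected cells or of a control siRNA was analysed here, so the effects of transfection and of PIR loss cannot be told apart. Each sample description holds a number from 10 to 12, and number 11 occurs once in each group; its meaning is not stated. The labels do not state whether replicates are separate cultures, and the p-values therefore reflect the spread between these libraries alone, which may be technical.

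Pirin, the product of PIR, is an iron-binding nuclear protein of the cupin superfamily. It is known as a co-regulator that promotes binding of the NF-kB subunit p65 to DNA, and its gene is a target of the oxidative stress regulator NRF2. In colorectal and other epithelial tumours it has been studied for its part in proliferation, senescence and migration.

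PIR itself was lower in both siPIR libraries. It stood at 14.4 and 14.6 TMM-scaled CPM (counts per library total on the usual scale, corrected for composition) in the untreated libraries and at 1.93 and 2.03 CPM in the siPIR libraries, from 519 and 462 counts against 37 and 39. The groups did not overlap for PIR, while 46.9% of all genes were called lower as counted. As counted, the difference was -2.87 on the log2 scale (SE 0.175, adjusted p = 3.39e-09, edgeR's quasi-likelihood test with Benjamini-Hochberg adjustment, 2 libraries a group). PIR lies at chrX:15384799-15493564 on the minus strand of GRCh38.

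Part of that difference was shared by genes of like composition. The 200 genes nearest to PIR in transcript GC content and untreated level had a median log2 ratio of -1.06 in siPIR replicate 1 and -0.92 in replicate 2. PIR lay -1.79 and -1.87 log2 units from those medians, at the 3rd and the 1.5th percentile of its neighbours. With the offset it fell by 2.003 (SE 0.175, adjusted p = 1.01e-09), and by 3.25 where GC content was averaged over all transcripts. Its nearest neighbour, SYS1, which encodes a Golgi membrane protein, went from 578 and 454 counts to 227 and 274.

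The 4 libraries held between 22622441 and 28816590 counts. The mean GC content of the transcripts, weighted by their counts, was 48.7% and 48.5% in the untreated libraries, 42.3% and 42.8% in the siPIR libraries and 48.3% and 48.5% in the SP2509 libraries. Mitochondrial transcripts took 8.51% and 8.38% of untreated counts and 5.53% and 6.81% of siPIR counts. The siPIR replicates differed more from each other than the untreated ones did, with a chi-square per degree of freedom of 19.1 against 4.13 over the genes detected. Of 10 colorectal epithelium markers, EPCAM, CDH1, KRT8, KRT18, KRT19 and CDX2 passed the filter on low counts, CDX1 was at 0 in all 4 libraries, and CDH17, LGALS4 and VIL1 had at most 14 counts. Their summed level was 3643 and 3574 CPM in untreated and 1319 and 1327 CPM in siPIR libraries, with KRT8 at 1856 and 1848 against 232 and 274 CPM and KRT19 at 723 and 683 against 45.1 and 69.8 CPM. With the offset 2 of the 6 rose (EPCAM and CDH1) and 3 fell (KRT8, KRT18 and CDX2). KRT8 (-0.74) and KRT18 (-0.55) stood at -0.14 and 0.60 with their principal transcripts, and CDX2 fell by 1.32. Summed fibroblast markers stood at 22.7 and 25.7 CPM in untreated and 1.78 and 2.13 CPM in siPIR libraries, nearly all from COL1A1, with COL1A2 at 0. Summed leukocyte markers ranged from 0.312 to 1.15 CPM with PTPRC and CD3E at 0, and endothelial markers from 0.417 to 1.83 CPM.

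Across the transcriptome the siPIR libraries were depleted of GC-rich transcripts. Genes with a transcript GC content under 35% (373 genes) had a median log2 ratio to untreated of 2.40 in replicate 1 and 2.14 in replicate 2. The 2888 genes at 45 to 50% GC lay near 0, at 0.015 and 0.092. The 607 genes at 65% or more had medians of -5.08 and -4.73. Both replicates therefore fell at every step from low to high GC. In the SP2509 libraries the first and last of these bins had medians of -0.040 and -0.11 and of -0.37 and -0.25, and the untreated replicates differed from each other by medians between -0.042 and 0.054. Across genes, which are not independent replicates, Spearman's rho between ratio and GC content was -0.884 and -0.875 with the longest transcript of each gene. It was -0.823 and -0.808 with the GC content of the 3′ untranslated region alone and -0.227 and -0.228 with that of the 5′ untranslated region. Library composition and fragment recovery were not measured apart from these counts, and the part of either in the trend was not tested.

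3 coding stretches are shown for a gene of high GC content that was lower, a gene of low GC content that was higher, and the largest rise. Each is the middle 90 bases of a coding sequence, with G and C in capitals. KMT5C, a histone H4 lysine methyltransferase, was lower, and STXBP3, a syntaxin-binding protein of vesicle fusion, was higher. FOXD1, a forkhead transcription factor, has as GC-rich a transcript as KMT5C and was higher. GC content was matched over whole transcripts, and a stretch can differ from its transcript.

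KMT5C, coding bases 649 to 738 of 1386 (gene at chr19:55339853-55348120, plus strand, GRCh38): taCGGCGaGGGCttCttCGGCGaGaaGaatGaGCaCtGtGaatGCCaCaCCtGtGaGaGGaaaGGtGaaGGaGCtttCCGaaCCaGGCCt

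STXBP3, coding bases 844 to 933 of 1776 (gene at chr1:108746674-108809526, plus strand, GRCh38): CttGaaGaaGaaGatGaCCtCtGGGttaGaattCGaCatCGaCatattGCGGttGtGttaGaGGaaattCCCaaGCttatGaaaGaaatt

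FOXD1, coding bases 652 to 741 of 1395 (gene at chr5:73444827-73448527, minus strand, GRCh38): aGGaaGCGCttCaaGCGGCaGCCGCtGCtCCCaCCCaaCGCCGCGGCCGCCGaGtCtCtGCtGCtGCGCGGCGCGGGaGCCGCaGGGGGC

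KMT5C (55.6% GC in this stretch, 66.1% over its longest transcript) had 404 and 348 counts untreated and 5 and 11 after siPIR. STXBP3 (38.9% and 35.9%) had 1013 and 986 untreated and 3753 and 3005 after siPIR. FOXD1 (76.7% and 66.0%) had 413 and 300 untreated and 1334 and 1121 after siPIR. FOXD1 and KMT5C thus began at similar counts and whole-transcript GC content and moved in opposite directions in both replicates. The coding sequence of FOXD1 has 75.3% GC and its 3′ untranslated region 43.0%, and the match did not extend to these parts.

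**Figure D1:**
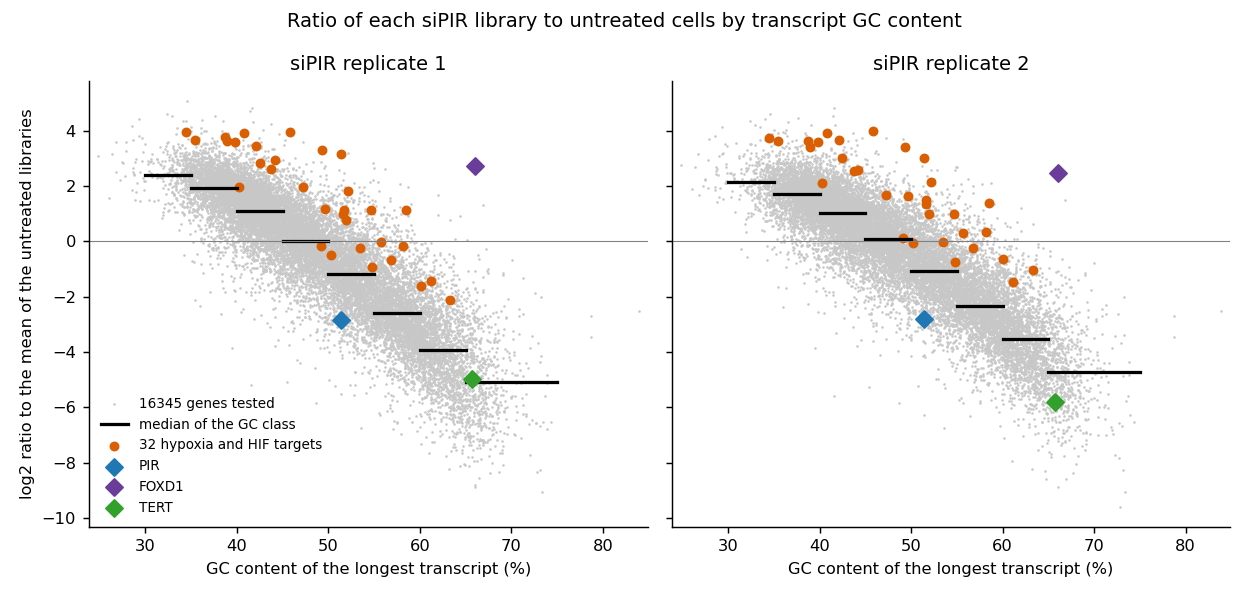
Each grey point is a gene, with the GC content of its longest transcript in percent on the x axis and its log2 ratio of a siPIR library to the untreated mean on the y axis, 1 panel per siPIR replicate. Black points are medians by GC bin, orange points are genes induced by hypoxia-inducible factor (HIF), and diamonds mark PIR, FOXD1 and TERT; the medians fall from above 2 to about -5 in both panels.

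Each gene was therefore judged beside its like in 3 ways. As counted, edgeR's quasi-likelihood test called 39.3% of 16503 genes higher and 46.9% lower at an adjusted p under 0.05. The split of these calls moved with the scaling: 45.6% of them were higher with TMM and 33.9% with total counts, where the median of all genes shifted from -0.28 to -0.89. With an offset for GC content and transcript length in the same test, 32.8% of 16345 genes were higher and 32.2% lower, the median of all genes was -0.04, and 2184 genes were called in opposite directions by the 2 tests. Of these, 1210 went from lower to higher and 974 from higher to lower. A gene was said to stand apart where it lay at least 1 log2 unit (2-fold) from the median of its 200 nearest genes in GC content and untreated level, the same way in both siPIR libraries, and the offset test called it that way: 10.4% of genes stood apart higher and 9.51% lower. Requiring the same with the GC content of both the longest and the principal protein-coding transcript left 1345 genes higher (8.23%) and 1067 lower (6.53%). This asks little more of genes for which both transcripts have the same GC content and length. Fold changes below are log2 values with the offset unless another scale is named, and "rose" and "fell" mean that this test passed at 0.05. They are thus relative to genes of like GC content and length, and a change shared by all genes of one composition would not appear in them. This GC content is that of whole transcripts, and the parts of a transcript were not matched. The cut of 1 log2 unit was the same at every GC content, while the spread between genes was not. In replicate 1 the interquartile range of the ratios was 0.954 at 35 to 40% GC and 2.32 at 65% or more. The share apart higher by both transcripts was 5.01% at 35 to 40%, 10.8% at 50 to 55% and 7.91% at 65% or more. The share apart lower was least under 35% (2.14%) and greatest at 65% or more. Counts of list members below are to be read beside the shares over all genes given in this paragraph. Those shares are not matched to the GC content of a list.

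The 2 siPIR libraries gave alike deviations. Across genes Pearson's r between them was 0.900, a description of libraries that share the untreated mean. Of 5438 genes at least 1 log2 unit from their neighbours in either library, 3301 were so in both in the same direction and 3 in opposite directions.

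**Figure D2:**
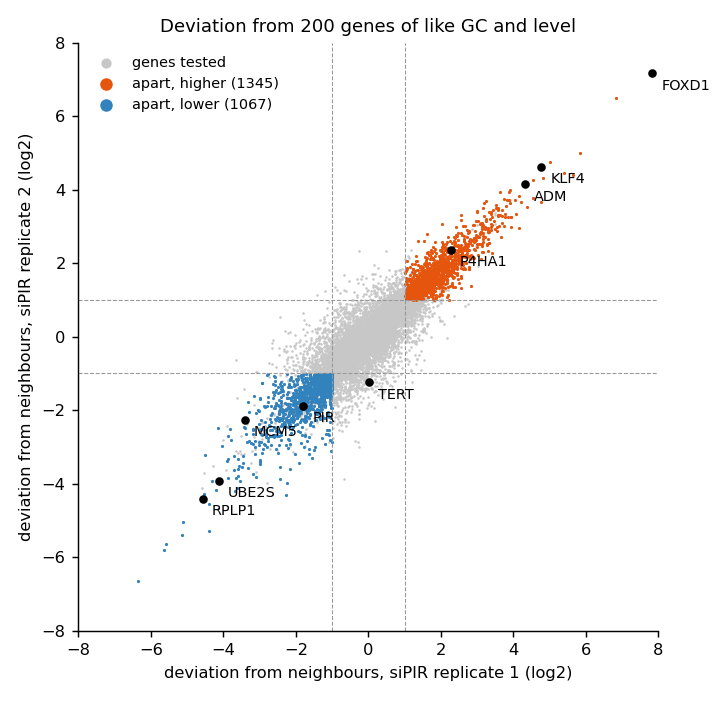
Each point is a gene, with its deviation from its 200 neighbours in siPIR replicate 1 (x axis) and replicate 2 (y axis), in log2 units; dashed lines mark 1 unit either way. The 1345 genes apart higher by both transcripts are orange and the 1067 apart lower are blue, and they run along the diagonal.

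FOXD1, TMEM158, ZNF503, IRS2, KLF4 and NR2F1 led the 12 largest rises, and 4 of the other 6 were listed HIF targets. FOXD1 rose by 7.17 (SE 0.203, adjusted p = 2.11e-09), from 11.4 and 9.49 CPM to 69.7 and 58.3 CPM. TMEM158, a membrane protein known to be induced by RAS signalling, rose by 6.11, from 13.8 and 12.5 CPM to 32.8 and 37.0 CPM. The zinc finger repressor ZNF503 rose by 5.15, with its siPIR replicates at 176 and 126 CPM. In each of these 3 genes both siPIR libraries lay above both untreated ones, while the neighbours' median ratio in replicate 1 was between -5.51 and -4.15. The rule for naming the largest rises required both this lack of overlap and a distance from the neighbours. That rule ranked genes by size and did not allow for the wider spread among GC-rich genes.

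IRS2, an adaptor of the insulin receptor, rose by 4.72, from 23.0 and 18.5 CPM to 80.3 and 88.9 CPM. The pluripotency and epithelial differentiation factor KLF4 rose by 4.46, from 29.1 and 27.5 CPM to 177 and 182 CPM. NR2F1, an orphan nuclear receptor, rose by 4.25, from 98.1 and 96.8 CPM to 246 and 249 CPM. These 3 genes were tightly reproduced, with SEs of at most 0.0964. ADM (4.04), BNIP3 (3.96, and 2.49 with its principal transcript), the carboxypeptidase CPA4 (3.89), EGLN3 (3.78), POLR2J3 (3.65) and SLC2A3 (3.63) complete the 12 largest rises. ADM, BNIP3, EGLN3 and SLC2A3 are HIF targets and are described with them. POLR2J3 has near-identical copies, so its counts are uncertain. All 12 stood apart with either transcript, but for FOXD1, TMEM158, ZNF503, IRS2, KLF4 and ADM both have the same GC content and length. That choice is thus no check on them.

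Several rises were set beside the nearest gene in GC content and untreated level, a match that itself gives each pair an equal start. TMEM158 went from 498 and 396 counts to 628 and 710, while OPLAH, which encodes oxoprolinase, went from 493 and 406 to 0 and 2. IRS2 went from 830 and 585 counts to 1537 and 1708, while ZNF692 went from 667 and 734 to 59 and 75. KLF4 went from 1051 and 869 counts to 3393 and 3495, while the GTP-binding protein gene GTPBP2 went from 1053 and 932 to 171 and 186. In all of these pairs the 2 genes moved in opposite directions in both siPIR libraries. For EGLN3 and SLC2A3 the nearest gene was higher too, by less. As counted, SLC25A43 stood at 0.69 beside EGLN3 at 3.36, and TAF4B at 1.76 beside SLC2A3 at 3.93.

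**Figure D3:**
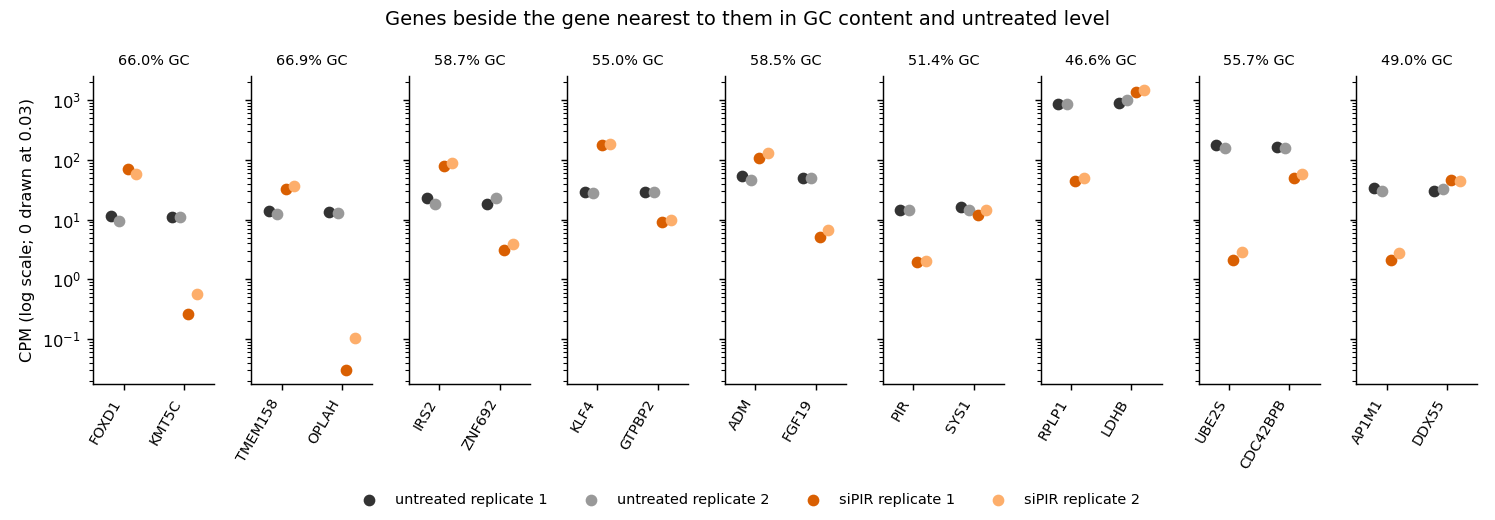
CPM on a log axis in the 2 untreated and 2 siPIR libraries for 9 genes, each beside the gene nearest to it in GC content and untreated level; a value of 0 is drawn at the bottom. Each pair starts at similar values in the untreated libraries and separates in the siPIR libraries, as FOXD1 and KMT5C do.

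The clearest group was the targets of HIF, the transcription factor that accumulates when oxygen-dependent prolyl hydroxylases are inactive. The list was written with earlier results of these data known, so its counts describe the listed genes and are not an independent test. Of 34 listed targets, 32 passed the filter on low counts (LOX and RORA had at most 1 count in any of the 4 libraries). All 32 tested targets rose with the offset, against 32.8% of all genes, with a median of 2.02 and a range of 0.25 to 4.04, beside a median of -0.04 for all genes. As counted, 22 were higher and 5 lower. With principal transcripts 31 rose and none fell, with a median of 1.97. 28 stood apart higher by both transcripts and none lower. Their deviation from neighbours was above 0 for 32 of 32 in both libraries, with medians of 1.96 and 2.04, and the median target lay at the 98th percentile of its neighbours in replicate 1. Their GC content ran from 34.4% to 63.3%.

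The oxygen sensors among them were high. EGLN3, a prolyl hydroxylase that marks HIF for degradation and is itself a HIF target, went from 16.5 and 15.2 CPM to 156 and 170 CPM (3.78). Its relative EGLN1 went from 83.0 and 81.6 CPM to 629 and 496 CPM (2.05). For both genes every siPIR library exceeded every untreated one, which for EGLN3 the naming rule required. As counted, 39.3% of all genes were called higher, and lack of overlap alone does not set a gene apart. The mitophagy receptors followed: BNIP3 went from 67.3 and 62.7 CPM to 587 and 530 CPM (3.96, and 2.49 with its principal transcript), and BNIP3L from 109 and 110 CPM to 1358 and 1162 CPM (1.95).

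Genes of glucose supply and its diversion from mitochondria rose too. SLC2A3, which encodes the glucose transporter GLUT3, went from 29.6 and 19.4 CPM to 373 and 377 CPM (3.63). PDK1, the kinase that shuts off pyruvate dehydrogenase, went from 26.3 and 22.8 CPM to 293 and 292 CPM (2.003). SLC2A1, which encodes GLUT1, went from 418 and 333 CPM to 195 and 225 CPM, and so was lower as counted (-0.84) and higher with the offset (0.89). It did not stand apart. The bifunctional glycolytic regulators PFKFB3 (2.10) and PFKFB4 (1.86) did, although PFKFB3 overlapped between groups in CPM (73.1 and 71.4 against 71.8 and 88.6).

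Collagen-modifying and secretory-pathway targets gave high ratios as counted. P4HA1, a collagen prolyl hydroxylase, went from 108 and 104 CPM to 1596 and 1581 CPM (3.90 as counted, 2.65 with the offset). ERO1A, an oxidase of the endoplasmic reticulum, went from 104 and 92.8 CPM to 1333 and 1203 CPM (3.69 and 2.03). PLOD2, a lysyl hydroxylase, went from 86.2 and 81.7 CPM to 1290 and 1113 CPM (3.84 and 1.74). These 3 have GC contents of at most 40.8%, where the neighbours rose as well. P4HA2 rose by 0.37 (0.93 with its principal transcript) and did not stand apart.

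Secreted factors and regulators made up most of the rest. ADM, the vasodilator adrenomedullin, went from 53.7 and 45.4 CPM to 109 and 128 CPM (4.04). VEGFA, the main angiogenic growth factor, went from 54.6 and 60.5 CPM to 125 and 113 CPM (2.61). ANGPTL4, an inhibitor of lipoprotein lipase, went from 20.6 and 12.1 CPM to 3.61 and 7.60 CPM, which is lower as counted (-1.55) and 2.40 higher with the offset (SE 0.454, adjusted p = 0.00784). Its GC content was 63.3%, and it no longer passed without siPIR replicate 1 (2.60) or siPIR replicate 2 (1.85), or with a replicate block (adjusted p = 0.0508). STC2, the glycoprotein stanniocalcin 2, rose by 2.09.

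Among intracellular regulators, NDRG1 rose by 2.98, DDIT4, an inhibitor of mTORC1 signalling, by 2.77, and ANKRD37 by 2.55 (5.29 with its principal transcript). The histone demethylases KDM3A (1.85), KDM4B (1.93) and KDM4C (1.78) rose by similar amounts. KDM4B fell as counted, from 67.5 and 60.8 CPM to 24.0 and 23.1 CPM, whereas KDM3A went from 98.1 and 91.1 CPM to 669 and 764 CPM. CA9, the hypoxia-marker carbonic anhydrase, was low, at 1.83 and 1.36 CPM untreated and 0.470 and 0.989 CPM in siPIR, which is lower as counted (-1.13) and 2.05 higher with the offset (adjusted p = 8.75e-05). BHLHE40 (1.86), MXI1 (1.89), HILPDA (1.91), INSIG2 (1.68) and ZNF395 (1.21) stood apart. FAM162A (0.69) and JMJD6 (0.25) did not, and JMJD6 stood at -0.03 with its principal transcript and at 0.06 without siPIR replicate 2; it also no longer passed without untreated replicate 1 (0.21) or replicate 2 (0.29).

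**Figure D4:**
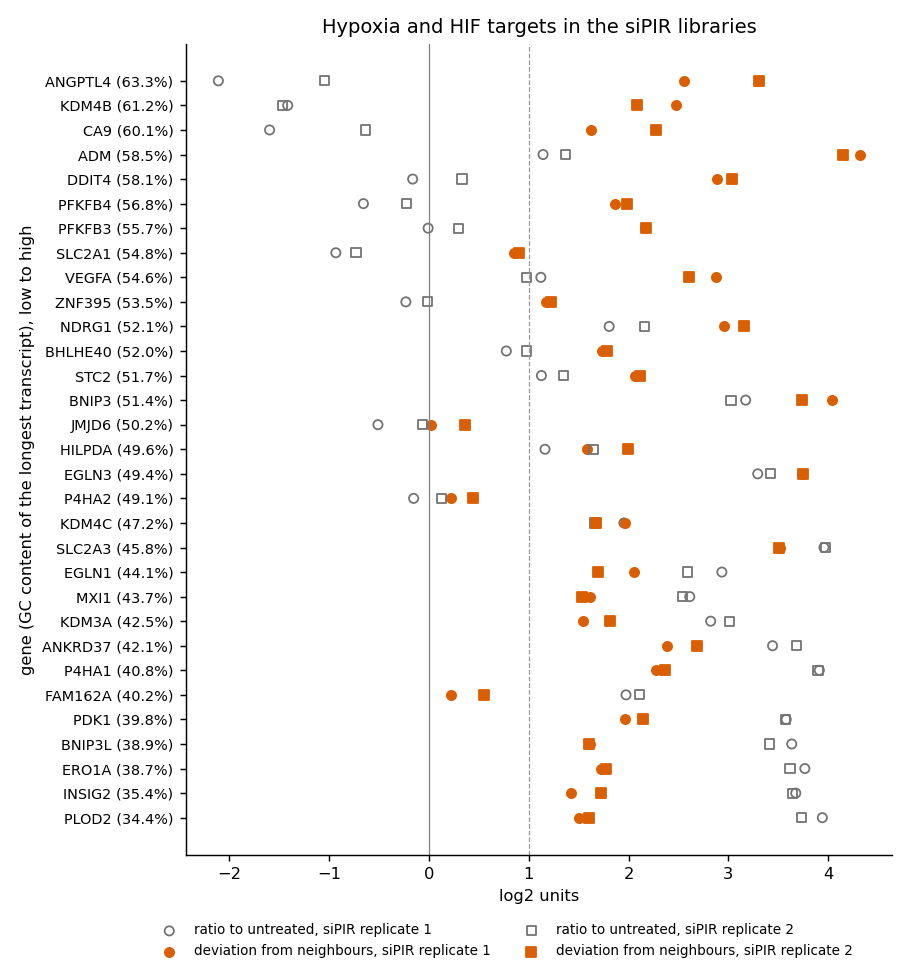
The 31 HIF targets named in the text, ordered by GC content, with open symbols for the log2 ratio of each siPIR library to the untreated mean and filled symbols for the deviation from 200 neighbours. Open symbols slope from near 4 at low GC content to below 0 at high GC content, while the filled symbols lie above 0 in both libraries for all 31.

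The HIF subunits did not move as 1 group. HIF1A was higher as counted (1.20) and fell with the offset (-0.71, and -0.026 with no filter on low counts), at 160 and 165 CPM untreated and 414 and 332 CPM in siPIR. EPAS1, which encodes HIF-2 alpha, rose by 1.55 and stood apart. ARNT, their shared partner, rose by 0.39, and ARNT2 fell by 1.598. VHL, which recognises hydroxylated HIF for degradation, rose by 1.35.

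Glycolytic enzymes were kept in a separate list that shares no gene with the HIF list, so the count of HIF targets depends on that division. They were mixed, with 10 of 19 higher and 5 lower, against 32.8% and 32.2% of all genes. Their median was 0.37 (-0.18 with no filter on low counts). Hexokinase 2 (HK2) rose by 3.36, from 78.8 and 67.1 CPM to 431 and 478 CPM, while HK1 fell by 1.49, from 135 and 125 CPM to 18.1 and 21.8 CPM. The 2 isoenzymes of the first step of glycolysis thus changed in opposite directions. The enolase ENO2 rose by 2.24 and GAPDH by 1.54. GAPDH was lower as counted, at 2850 and 2595 CPM untreated and 898 and 1286 CPM in siPIR.

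Promoter sequence was compared as well, although many listed targets are known for sites that HIF binds. HIF recognises a core motif of the form ACGTG or GCGTG. Only ACGTG was searched here, on both strands in the 250 bases before each start (RefSeq, GRCh38.p14). ACGTG also lies within the CACGTG box that other factors bind. It occurred in 18 of 30 windows of tested HIF targets (60%), that is in 17 of the 24 genes with a window (70.8%). It occurred in 22.1% of 15384 windows of all tested genes (28.7% of genes), and in 24.7% of windows within the middle GC range of the HIF windows, 64.4 to 73.9%. A match is a description of letters, not a bound site. 4 windows are given to show targets with 2, 1 and no matches, with the matches in capitals.

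ANKRD37, chr4:185396591-185396840, plus strand, GRCh38.p14, 2 matches: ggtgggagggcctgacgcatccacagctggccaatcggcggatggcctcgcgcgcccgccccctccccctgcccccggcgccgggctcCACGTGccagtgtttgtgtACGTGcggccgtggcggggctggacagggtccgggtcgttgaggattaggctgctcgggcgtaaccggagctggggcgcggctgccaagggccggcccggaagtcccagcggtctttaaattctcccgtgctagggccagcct

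P4HA1, chr10:73096867-73097116, minus strand, GRCh38.p14, 1 match: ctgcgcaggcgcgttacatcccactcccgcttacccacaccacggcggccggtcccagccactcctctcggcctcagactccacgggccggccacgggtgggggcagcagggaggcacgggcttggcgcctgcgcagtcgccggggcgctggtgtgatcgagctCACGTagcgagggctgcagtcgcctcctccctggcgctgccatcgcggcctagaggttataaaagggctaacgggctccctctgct

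BNIP3, chr10:131981924-131982173, minus strand, GRCh38.p14, 1 match: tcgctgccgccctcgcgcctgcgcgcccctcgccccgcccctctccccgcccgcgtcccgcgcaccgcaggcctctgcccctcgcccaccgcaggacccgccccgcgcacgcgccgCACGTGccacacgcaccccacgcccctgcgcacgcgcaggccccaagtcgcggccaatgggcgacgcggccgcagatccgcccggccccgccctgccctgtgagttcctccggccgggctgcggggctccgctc

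ADM, chr11:10304823-10305072, plus strand, GRCh38.p14, no match: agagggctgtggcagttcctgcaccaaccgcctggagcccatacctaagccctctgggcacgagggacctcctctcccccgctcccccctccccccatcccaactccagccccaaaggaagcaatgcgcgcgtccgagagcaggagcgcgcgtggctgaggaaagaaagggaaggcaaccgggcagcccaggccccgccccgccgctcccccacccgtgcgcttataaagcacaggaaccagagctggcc

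ADM, with no ACGTG in this window although GCGTG occurs in it, rose by 4.04, and by 3.84 where the offset used principal transcripts. Its own GC content and length are the same in both. ANKRD37, with 2 matches, rose by 2.55 with its longest and 5.29 with its principal transcript. The order of these genes thus depends on the transcript taken for ANKRD37.

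Immediate early genes, which growth factors and stress induce within minutes, also lay above their neighbours. Of 26, 22 rose and 2 fell, against 32.8% and 32.2% of all genes, with a median of 1.37. By both transcripts 16 stood apart higher and 1 lower, against 8.23% and 6.53% of all genes. KLF2 rose by 4.23 at 26.3 and 22.3 CPM untreated and 24.9 and 18.9 CPM in siPIR, where its groups overlapped and its neighbours fell. The phosphatase gene DUSP1 rose by 3.35, from 10.3 and 7.97 CPM to 24.9 and 27.3 CPM. Among AP-1 subunits, JUND (3.31), FOSL2 (2.64), JUN (1.64), FOS (1.34) and FOSL1 (1.19) rose. FOSL2 was also higher as counted, at 96.8 and 90.5 CPM untreated and 260 and 235 CPM in siPIR, and JUND was lower, at 99.7 and 95.1 against 22.7 and 28.5 CPM. The exception was JUNB, which fell by 2.43, from 71.8 and 60.9 CPM to 0.418 and 0.833 CPM. FOS no longer passed without siPIR replicate 1 (1.14) or replicate 2 (1.53). EGR1 rose by 2.36, and IER5 fell by 0.71 without standing apart.

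Transcripts with known AU-rich elements, which mark short-lived mRNAs, behaved alike. Of 15, 12 rose and 3 fell, against 32.8% and 32.2% of all genes, with a median of 1.47. By both transcripts 10 stood apart higher and none lower, against 8.23% and 6.53% of all genes. 5 of them are also immediate early genes (33.3% of this list, 19.2% of the other). Outside these, 7 of 10 rose and 3 fell, with a median of 1.42. ZFP36 (3.18) and ZFP36L1 (2.99), which encode proteins that bind AU-rich elements and promote decay, both rose. ZFP36L1 went from 221 and 212 CPM to 1353 and 1145 CPM, a rise of 5.34 with averaged GC content. IER3 rose by 1.40, and MCL1, the short-lived survival protein of the BCL2 family, by 2.02, from 167 and 163 CPM to 956 and 855 CPM.

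Genes of DNA replication were lower. Of 36, 28 fell and 4 rose with the offset, against 32.2% and 32.8% of all genes, with a median of -1.04, and 13 stood apart lower by both transcripts and none higher. In the MCM helicase, MCM5 fell by 2.99, MCM6 by 1.66, MCM2 by 1.53, MCM3 by 1.40, MCM4 by 1.20 and MCM7 by 0.51. MCM5 went from 101 and 87.9 CPM to 1.25 and 3.54 CPM, and MCM6, which has a low GC content of 43.1%, from 126 and 115 CPM to 70.1 and 64.8 CPM. All 6 subunits thus lay below genes of like GC content, and MCM7 did not stand apart.

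GINS4, a subunit of the same replicative helicase, fell by 2.01, and POLD1, the catalytic subunit of polymerase delta, by 3.16, with 6 counts left in each siPIR library. RNASEH2A, a subunit of ribonuclease H2, fell by 3.03, from 32.0 and 31.0 CPM to 1.78 and 2.40 CPM. H2AFX, the histone variant phosphorylated at DNA breaks, fell by 2.95. The replication clamp PCNA (0.25) and the origin recognition subunit ORC2 (0.41) rose slightly, and neither stood apart. PCNA no longer passed without untreated replicate 1 (0.26), untreated replicate 2 (0.26) or siPIR replicate 1 (0.08), or with a block on the description number (0.003).

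Mitotic genes fell less as a list. Of 30, 21 fell and 5 rose, against 32.2% and 32.8% of all genes. Their median was -0.36 (0.03 with no filter on low counts, -0.69 with averaged GC content). By both transcripts 3 stood apart lower, against 6.53% of all genes: KIF20A (-1.23), CCNB1 (-1.02) and TOP2A (-0.90). TOP2A shows the effect of the comparison chosen, since it was higher as counted, at 192 and 193 CPM untreated and 322 and 309 CPM in siPIR. The genes of G1 moved the other way in part, with 11 of 21 higher and 6 lower, against 32.8% and 32.2% of all genes. By both transcripts 7 stood apart higher, against 8.23% of all genes. Their median was 0.28 with the longest and -0.09 with the principal transcripts. The inhibitor CDKN1B (p27) rose by 2.29, from 41.2 and 42.6 CPM to 202 and 179 CPM, and CDKN1A (p21) by 2.17, although p21 was lower as counted, at 132 and 125 against 81.3 and 103 CPM. CCND1 (2.09) and CDK6 (1.51), which drive cells through G1, rose as well, by 4.93 and 3.54 with averaged GC content.

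Cytosolic ribosomal protein genes were lower. Of 50, 40 fell and 7 rose, against 32.2% and 32.8% of all genes, with a median of -0.94. By both transcripts 16 stood apart lower and none higher, against 6.53% and 8.23% of all genes. RPLP1, an acidic protein of the ribosomal stalk, fell by 4.30, from 844 and 865 CPM to 43.6 and 50.1 CPM, although its GC content is 46.6%. Its nearest gene, LDHB, went from 905 and 988 CPM to 1389 and 1485 CPM. RPS15 fell by 3.09, from 353 and 368 CPM to 3.34 and 6.04 CPM, RPS9 by 2.10 and RPS28 by 2.07 (1.27 and 3.92 with principal transcripts). RPS29 fell by 1.96 with its longest transcript and stood at -0.06 with its principal transcript. Ribosomal protein genes have many processed pseudogenes, so their counts are uncertain where reads were shared.

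Respiratory chain genes were mixed. Of 32 encoded in the nucleus, 15 fell and 7 rose, against 32.2% and 32.8% of all genes. Their median was -0.15 (-0.43 with principal transcripts). COX5B fell by 2.62, from 77.5 and 83.4 CPM to 5.38 and 5.88 CPM, and COX7C by 1.55 at nearly equal CPM in all 4 libraries (129 and 134, 128 and 135), since genes of its 39.0% GC rose. UQCC3, an assembly factor of complex III, fell by 2.57. SDHA, the catalytic subunit of complex II, fell by 1.71 with its longest transcript and by 0.63 with its principal one. Of 15 mitochondrially encoded RNAs, 12 fell and 1 rose, with a median of -0.55, which was 0.03 where the offset also held the untreated level. The ribosomal RNA MT-RNR1 fell by 1.77 and MT-ND2, a subunit of complex I, by 1.13, beside the lower mitochondrial share of counts given above.

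Interferon-stimulated genes, which double-stranded RNA can induce through its sensors, were lower. Of 29 tested, 22 fell and 2 rose, against 32.2% and 32.8% of all genes, with a median of -0.86. By both transcripts 9 stood apart lower and none higher, against 6.53% and 8.23% of all genes. ISG15, a ubiquitin-like modifier, fell by 2.78, from 34.0 and 32.0 CPM to 0.313 and 0.312 CPM. IFIT1, which binds foreign RNA, fell by 2.38, from 8.16 and 7.12 CPM to 2.87 and 3.12 CPM. HERC6 fell by 1.43. The RNA sensor TLR3, at 1.99 and 2.06 CPM untreated and 2.19 and 1.46 CPM in siPIR, fell by 1.98 only with the offset. IRF1, an interferon-induced transcription factor, fell by 1.52.

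In the RNA interference machinery, 6 of 14 genes rose and 5 fell, against 32.8% and 32.2% of all genes. AGO2, the slicer that carries small interfering RNAs, rose by 1.53, from 202 and 189 CPM to 683 and 668 CPM. DGCR8, which processes microRNA precursors, fell by 1.67, from 45.7 and 47.1 CPM to 6.11 and 5.21 CPM.

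Sterol and lipid synthesis genes were lower on balance. Of 26 cholesterol synthesis genes, 16 fell and 4 rose, against 32.2% and 32.8% of all genes, with a median of -0.67. By both transcripts 8 stood apart lower and none higher, against 6.53% and 8.23% of all genes. CYP51A1, lanosterol demethylase, was nearly lost: it had 575 counts over the 2 untreated libraries and 5 over the 2 siPIR libraries, 1.54% of the untreated level (exact 95% interval 0.497 to 3.61%, counting error only), with a GC content of 41.5%. FDFT1, squalene synthase, fell by 1.43, from 110 and 124 CPM to 32.6 and 39.5 CPM. Of 14 fatty acid synthesis genes 8 fell and 4 rose. FASN, fatty acid synthase, fell by 2.75, from 1341 and 1234 CPM to 7.73 and 12.4 CPM, at a GC content of 65.3%. The acyl-CoA ligase ACSL3, with 38.1% GC, fell by 0.94 while its CPM increased from 145 and 141 to 274 and 232.

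**Figure D5:**
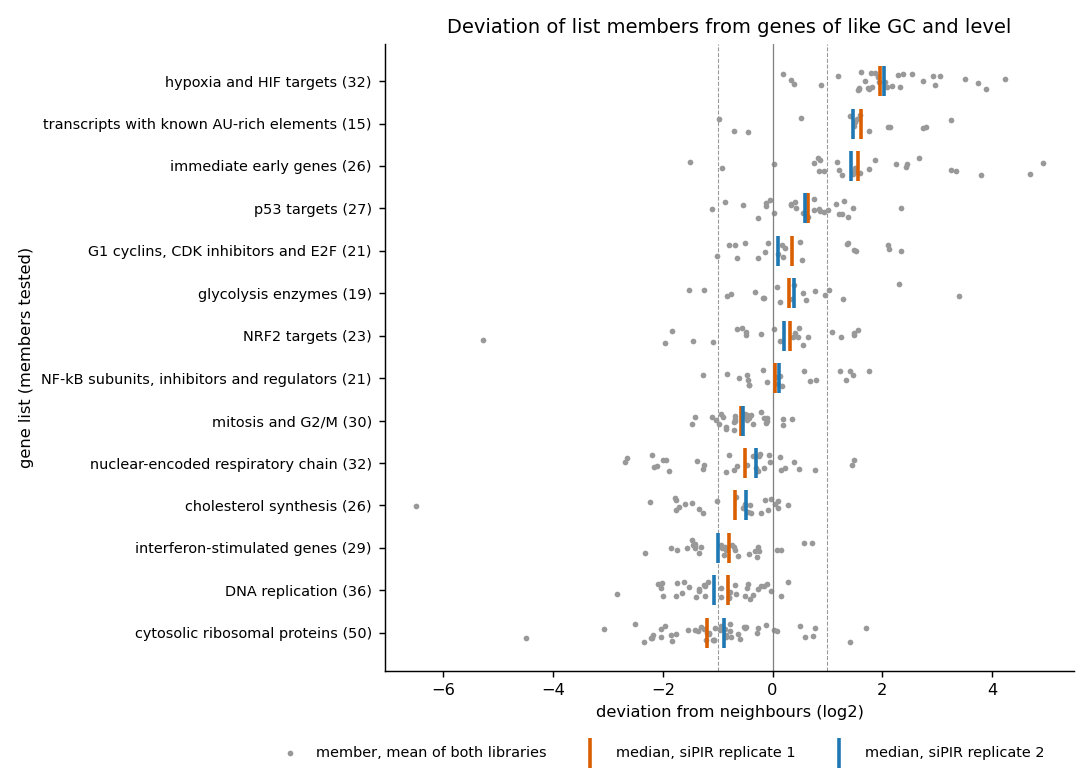
For 14 gene lists, grey points are members and coloured points the median deviation from 200 neighbours in each siPIR library, in log2 units. HIF targets, with medians of 1.96 and 2.04, lie furthest above 0, and DNA replication, ribosomal protein and interferon-stimulated genes lie below 0.

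The pathway in which Pirin is best known showed no common direction. Of 21 NF-kB subunits, inhibitors and regulators, 7 rose and 6 fell, with a median of 0.06, shares near those of all genes. The subunit NFKB2 (p100) rose by 1.40 while lower as counted, at 85.0 and 81.5 CPM untreated and 14.6 and 18.5 CPM in siPIR. REL, which encodes c-Rel, rose by 1.03, from 9.13 and 5.69 CPM to 49.8 and 52.0 CPM. TRAF2, an adaptor of tumour necrosis factor receptors, fell by 1.87. Of 15 NF-kB effector targets 7 rose and 2 fell, with a median of 0.45 (0.27 with principal transcripts). SDC4, a cell-surface proteoglycan among them, rose by 2.08, from 86.6 and 80.3 CPM to 273 and 294 CPM.

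NRF2 targets, of which PIR is one, were also mixed, with 10 of 23 higher and 8 lower and a median of 0.15. The shares over all genes were 32.8% and 32.2%. GCLC, the rate-limiting enzyme of glutathione synthesis, rose by 1.85, from 72.3 and 71.9 CPM to 415 and 362 CPM, and the thioredoxin reductase TXNRD1 by 1.83. PGD, of the pentose phosphate pathway, fell by 1.41, from 169 and 175 CPM to 24.5 and 30.8 CPM. Of 18 genes of iron handling 11 rose and 4 fell, with a median of 0.33. The ferrireductase STEAP3 (1.44) and the iron chaperone PCBP1 (1.42) rose, and both were lower as counted.

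Stress pathways other than hypoxia had smaller medians. Of 27 p53 targets, 20 rose and 4 fell, with a median of 0.73, and 4 of the 27 stood apart higher by both transcripts, beside 8.23% of all genes, among them SESN1 (1.67, and 0.88 with averaged GC content), which restrains mTORC1 and went from 16.2 and 17.0 CPM to 95.8 and 83.0 CPM. Of 25 genes of the ATF4 stress response 15 rose and 5 fell, against 32.8% and 32.2% of all genes, with a median of 0.36. CEBPB, a leucine zipper factor, rose by 2.32, and PHGDH, the first enzyme of serine synthesis, fell by 2.95 (1.48 with its principal transcript), from 84.7 and 84.7 CPM to 5.17 and 5.26 CPM. Of 23 genes of the unfolded protein response 9 rose and 7 fell, with a median of 0.10 (0.43 with principal transcripts). Of 16 cytosolic heat shock genes 6 rose and 8 fell, with HSPB1 lower by 3.01. HSPA1A (-3.91) and HSPA1B (1.65) are near-identical copies, so their opposite values are uncertain.

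Several single genes of secretion, adhesion and signalling stood out at high levels. WNT16, a secreted WNT ligand, rose by 3.47, from 31.7 and 28.8 CPM to 782 and 704 CPM, and the receptor FZD5 by 1.88. The other WNT genes gave no common direction, with 14 of 36 in the list higher and 11 lower and a median of -0.02. F3, tissue factor, the trigger of coagulation, rose by 3.40, from 21.3 and 20.6 CPM to 401 and 316 CPM. In the list of coagulation, protease and inhibitor genes 10 of 12 rose and 1 fell, with a median of 0.71.

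AXL, a receptor tyrosine kinase, rose by 2.91, from 35.1 and 35.1 CPM to 97.2 and 94.7 CPM. The epithelial-mesenchymal transition factor SNAI2 rose by 1.75, from 0.830 and 0.538 CPM to 5.80 and 4.58 CPM. Mesenchymal genes gave 7 of 18 higher and 4 lower, with a median of 0.16, or 0.32 with principal transcripts. FN1, the matrix protein fibronectin, fell by 2.33 (0.94 with its principal transcript). EPCAM, the epithelial adhesion molecule, rose by 1.73, from 203 and 221 CPM to 758 and 667 CPM. Epithelial junction and keratin genes gave 12 of 25 higher and 9 lower, with a median of 0.21, and 2 stood apart higher and 3 lower by both transcripts. KRT20, an intestinal keratin, fell by 2.36, from 1.99 and 2.69 CPM to 0.575 and 0.521 CPM. Neither list moved in 1 direction. The alpha-arrestins ARRDC3 (2.74) and ARRDC4 (1.40), which regulate receptor and glucose transporter turnover, rose, and ARRDC3 went from 74.7 and 66.0 CPM to 1642 and 1557 CPM.

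TERT, the catalytic subunit of telomerase, was far lower as counted, as were genes of like GC content. It had 485 counts over the untreated and 4 over the siPIR libraries, 1.46% of the untreated level (exact 95% interval 0.396 to 3.76%, counting error only). Its transcript has 65.7% GC, and its deviations from neighbours were 0.01 in replicate 1 and -1.24 in replicate 2, at the 50.5th and 10.5th percentiles. Its nearest gene, the spectrin SPTBN4, went from 280 and 244 counts to 6 and 4. With the offset TERT fell by 1.65 (SE 0.584, adjusted p = 0.0169), and it did not stand apart. Without siPIR replicate 2 TERT no longer passed (-1.04, adjusted p = 0.22), and without replicate 1 it stood at -2.92. Of 17 tested telomerase and shelterin genes 7 rose and 8 fell, against 32.8% and 32.2% of all genes. The shelterin subunit TERF2IP (RAP1) rose by 2.10, and the telomerase assembly factors WRAP53 (-1.58) and NOP10 (-1.04) fell.

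KDM1A, which encodes LSD1, the target of SP2509, changed little, at 194 and 193 CPM untreated and 165 and 168 CPM in siPIR. It rose by 0.51 with the offset and stood at -0.57 where GC content was averaged over all transcripts, so its direction depends on the transcripts used. Of 14 genes of the LSD1 and CoREST complex 7 rose and 1 fell, with a median of 0.22 (0.61 with principal transcripts). GSE1 rose by 1.21, and HDAC1 fell by 0.83.

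The label naming SP2509 was set against the 8 genes chosen for their rise in the SP2509 libraries of this series, which is not independent evidence. Of these, 6 rose with the offset and 1 fell after siPIR. ATF3, a stress-induced transcription factor, stood at 7.55 and 6.61 CPM untreated, 13.8 and 16.2 CPM in siPIR and 396 and 390 CPM in SP2509 libraries. KRT80, a keratin, stood at 5.86 and 7.12 CPM, 3.66 and 4.69 CPM, and 275 and 290 CPM. In CPM both siPIR libraries lay above both untreated ones for ATF3 (1.08 as counted) and below them for KRT80 (-0.63). NRP1, a neuropilin receptor, stood at 1.99 and 1.64, 14.1 and 11.9, and 54.5 and 70.3 CPM. ETS1, a transcription factor, stood at 13.5 and 13.3, 61.3 and 63.1, and 409 and 370 CPM. As counted, 5 of the 8 genes were higher after siPIR and 3 lower, against 39.3% and 46.9% of all genes. The higher ones were NRP1 (2.83), ETS1 (2.22), CD274 (1.62), DDIT3 (1.21) and ATF3. The lower ones were KRT80, KRT16 (-1.67) and UPP1 (-0.92). With the offset ATF3 rose by 0.9996 (1.59 with its principal transcript) and ETS1 by 1.23 (2.70), and NRP1 (2.24), KRT16 (1.72), DDIT3 (1.69) and KRT80 (1.65) also rose, UPP1 fell by 0.68 (0.75 with its principal transcript), and CD274 stood at 0.38 (adjusted p = 0.0527). KRT16 no longer passed without untreated replicate 1 (1.41) or siPIR replicate 1 (1.28), or with a block on the description number (1.39).

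Some of the largest rises after siPIR were also high in the SP2509 libraries, which are compared with the same untreated libraries. KLF4 stood at 29.1 and 27.5 CPM untreated, 177 and 182 CPM in siPIR and 183 and 192 CPM in SP2509 libraries. FOXD1 stood at 47.7 and 49.2 CPM in SP2509 libraries, IRS2 at 135 and 138 CPM and CPA4 at 98.4 and 117 CPM, above their untreated levels. TMEM158 stood at 78.5 and 96.4 CPM and ZNF503 at 101 and 99.6 CPM there, also above untreated. The HIF targets EGLN3 (4.44 and 3.76 CPM), ADM (39.1 and 37.8 CPM) and BNIP3 (54.3 and 59.0 CPM) were below their untreated levels in the SP2509 libraries. SLC2A3, the other HIF target among the 12 largest rises, was above its own, at 48.4 and 41.6 CPM against 29.6 and 19.4 CPM untreated. These targets thus did not move 1 way there. Whether the siPIR cells received the compound cannot be told apart from these values.

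The largest falls depended more on which transcript gave the GC content. Of the 12 largest, RPLP1 had nearly the same value with either transcript (-4.30 and -4.19). UBE2S, EPN1 and AP1M1 have the same GC content and length in both. For them this choice cannot show how far the fall depends on the transcript. UBE2S, a ubiquitin-conjugating enzyme of mitotic exit, fell by 4.07, from 179 and 160 CPM to 2.14 and 2.92 CPM. It fell by 4.30 where the offset used principal transcripts. AP1M1, a clathrin adaptor subunit, fell by 3.53, from 34.2 and 30.4 CPM to 2.14 and 2.71 CPM, while its nearest gene, the helicase DDX55, went from 29.8 and 32.6 CPM to 45.8 and 44.8 CPM. The endocytic adaptor EPN1 fell by 3.60. With averaged GC content AP1M1 fell by 1.57 and EPN1 fell by 2.004.

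ATP6V0E2 (-5.66 with the longest and -2.13 with the principal transcript), C7orf49 (-4.29 and -1.17), C12orf57 (-4.14 and -2.33) and PLAT (-3.38 and -1.60), which encodes tissue plasminogen activator, fell either way by different amounts. G6PC3 (-4.05 and -1.38), TECR (-3.99 and -0.88) and IGFBP2 (-3.55 and -1.20) no longer stood apart with the principal transcript. MMP24-AS1 reversed, from -3.85 to 2.60. ID3, an inhibitor of helix-loop-helix factors named here after its values were seen, fell by 2.69, from 205 and 202 CPM to 6.95 and 4.90 CPM. It fell by 2.84 where the offset used principal transcripts, which leave its own GC content and length unchanged.

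Some features that the rule had not used differed among genes that stood apart. In protein-coding genes the median GC content of the 3′ untranslated region was 42.1% for those apart higher and 46.3% for those apart lower. It was 42.8% for all tested. The GC content of this region was not matched, and its part in the deviations was not tested. Among protein-coding genes with 1 exon, 65 of 296 (21.96%) stood apart higher by both transcripts and 25 (8.45%) lower, while among 1810 genes with over 20 exons 5.25% did so higher and 4.75% lower. The median number of exons was 7 for genes apart in either direction and 9 for all tested. FOXD1 and JUND, described above, each have 1 exon. Of 15 long noncoding nuclear RNAs 9 rose and 2 fell, with a median of 0.87, and 6 stood apart higher. Genes apart higher had a median GC content of 51.9%, those apart lower 50.4% and all tested genes 48.5%. The share of unspliced or nuclear RNA in each library was not measured.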

How the data were processed

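The authors deposited a table of estimated counts for 60675 Ensembl genes, many not whole; rounded values entered the tests. FastQC 0.11.8, Trimmomatic 0.32, HISAT2, featureCounts, Subread 1.6.2, edgeR 3.26.4 and GRCh38 are named per the submitters' processing notes, and a directional kit per the labels' protocols. For the annotation, the strand setting and the handling of shared reads nothing was given in the sources used here. The counts of near-identical and overlapping genes are therefore uncertain.

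GC content, length and coordinates came from GENCODE 29 (57055 of 60675 identifiers found). edgeR 4.0.16 in R 4.3.3 (filterByExpr, TMM, robust quasi-likelihood, Benjamini-Hochberg, threshold 0.05) was run on all 6 libraries in 3 groups, which leaves 3 residual degrees of freedom, with the contrast siPIR minus untreated. The offset was fitted per library on GC content and log2 length of the longest transcript (natural splines, 5 degrees of freedom). Neighbours were the 200 tested genes nearest in GC content (1 percentage point) and untreated mean log2 CPM (0.5 units), with a prior count of 2. Both steps were run on simulated data with a straight GC trend and a small scatter between genes. That setting is simpler than these data and does not show how well the steps work at the spread seen here. The principal (APPRIS) transcript was added as an alternative after seeing the data. Libraries held 22622441 to 28816590 counts, so that a count of 0 allows up to 3 counts, or 0.104 to 0.133 CPM of the library total. These floors lack the TMM factor, and 3 counts of TERT in siPIR replicate 1 were 0.157 TMM-scaled CPM. Intervals and floors cover counting error only.

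The genes and lists were chosen with earlier results of these data known. By rule, the text names PIR, TERT, KDM1A, 8 SP2509-responsive genes, the 12 largest rises and falls among protein-coding genes standing apart (average log2 CPM of at least 3, at least 10 counts in the lower group, no overlap in CPM), and up to 4 genes apart per list; other genes were named after their values were seen. 2 genes counted in the lists are not reported here. Alternatives covered scaling, tool, filter, libraries, blocks, offset terms and neighbour settings.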

Additional observations from a re-analysis of the deposited data

How the results depend on the processing

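Counts of genes called and of genes standing apart stayed within 1.5 times of the values given, over every alternative run, except with a deviation of 2 log2 units, which leaves by construction fewer genes apart: 332 higher and 266 lower. Of 3002 values of the 158 genes named with the offset, 2956 kept their direction and their side of the threshold, 37 no longer passed it, 3 newly passed it and 6 reversed: JMJD6 (-0.027), KRT18 (0.60), UPP1 (0.75) and MMP24-AS1 (2.60) with principal transcripts, and KDM1A (-0.57) and UPP1 (1.73) with GC content averaged over transcripts. PCNA, JMJD6, ANGPTL4, FOS, KRT16, TERT, ARNT, HIF1A, RPS29, KRT8 and KRT18 account for the calls lost. Sizes were less stable than calls: values moved by over 1.5 times for 39 of these genes with GC content averaged over transcripts, for 35 with no filter on low counts (JUND to 1.40, CEBPB to 0.88 and NFKB2 to 0.40 among them) and for 25 with principal transcripts.

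Leaving out each library in turn gave 6145 to 6560 genes higher and 7405 to 7748 lower as counted, 4716 to 5148 higher and 4677 to 4861 lower with the offset, and 1677 to 2032 apart higher and 1527 to 2049 apart lower. PIR then ranged from -2.89 to -2.81 as counted and from -2.03 to -1.99 with the offset. The lone library of a group was assumed to vary like the other groups.

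The replicate numbers showed no visible pairing of siPIR with untreated libraries: same-numbered deviations correlated across genes at -0.038 as counted and -0.016 with the offset. With 2 libraries a group this cannot exclude pairing. Replicate 1 has description number 10 in siPIR and 11 in untreated. A replicate block gave 6447 genes higher and 7689 lower as counted, 5295 and 5223 with the offset, 1696 and 1554 apart, and PIR at -2.87 and -2.00. A block on the description number, of which 11 occurs in every group, gave 6225 and 7308 genes as counted, 4919 and 4583 with the offset, and PIR at -2.90 and -2.09; it lost the calls of PCNA and KRT16 among the named genes.

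Depth limits genes with few siPIR counts, TERT and CYP51A1 among them, and GC-rich genes have the fewest. With 2 libraries a group, an unshared feature of either siPIR library weighs on every value.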
